A study of Mus musculus with 16 samples.

Results

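The genes described here are 9 small nucleolar RNA host genes of the mouse: Snhg1, Snhg3, Snhg5, Snhg6, Snhg8, Snhg12, Snhg15, Gas5 and Zfas1. They were taken as the rows of the count table whose Ensembl identifier carries one of these symbols in GENCODE vM21, and all 9 were present among the 53801 genes of the table. Each of the 9 passed the filter on low counts, which left 13774 genes for testing, and the lowest estimated count of any of them in any library was 49, for Snhg15. The set was chosen by measured values of these libraries: several of its genes had some of the lowest log2 fold changes between 2% and 20% oxygen. The oxygen values below are therefore a description of that choice, with no test. The choice was worded as large falls at 2% oxygen, which was read here as the contrast between oxygen levels. It could also mean the knockout comparison at 2% oxygen. The libraries of the knockout comparisons at both oxygen levels also enter the oxygen contrasts. The knockout tests of these genes are thus not independent of the choice.

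RNA came from cultured mouse acute myeloid leukemia (AML) cells of the MLL-AF9 type, named for the fusion protein that transforms blood progenitors, grown in RPMI with serum, IL-3 and SCF. In all 16 libraries Cas9 had been induced with 4-OHT (4-hydroxytamoxifen), so the controls carry the nuclease and the drug exposure too. The groups were control cells with a non-targeting guide RNA at 20% oxygen, MCT4-KO cells at 20% oxygen, control cells at 2% oxygen and MCT4-KO cells at 2% oxygen, with 4 libraries each. MCT4 is the lactate and proton carrier encoded by Slc16a3. One cell line was used, and whether the knockout cells were a clone or a mixed population, and how long they spent at each oxygen level, is not given in the sources used here. The labels only number the replicates, and if these were not separate cultures, the spread behind every p-value is a technical one.

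A small nucleolar RNA (snoRNA) guides the chemical modification or the cleavage of ribosomal and other RNAs, and in mammals most are cut out of introns. A host gene is transcribed by RNA polymerase II and spliced, the debranched intron is trimmed to the snoRNA, and the joined exons leave as a long RNA. Many host transcripts begin with a pyrimidine tract like that of ribosomal protein mRNAs (a 5′ terminal oligopyrimidine, or TOP, start), and for several of them, Gas5 first among these, the joined exons are engaged by ribosomes and degraded by nonsense-mediated decay. Their abundance is thus known to respond to growth conditions and to blocks of translation. The level measured here is that of the poly(A)-selected host RNA, and it says nothing of how much snoRNA the cells held.

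What the 9 genes share is the intron. GENCODE places 33 snoRNA entries (31 loci once overlapping entries are merged) inside them, and all 33 lie in an intron of at least 1 host transcript. In the transcript with the most exons, Snhg1 carried a snoRNA in 8 of 9 introns, Gas5 in 9 of 11, Snhg12 in 4 of 4 and Zfas1 in 3 of 4. Snhg3 and Snhg5 held 2 each, and Snhg6, Snhg8 and Snhg15 held 1 each. The 4 snoRNAs below are printed to show the cargo of 2 hosts that were far lower at 2% oxygen (Snhg5 and Snhg15) and of 2 that were not (Gas5 and Snhg8). They are box C/D snoRNAs, the methylation guides, with the C and D boxes in capitals, or box H/ACA snoRNAs, the pseudouridylation guides, with the ACA box in capitals, each written 5′ to 3′ as DNA from the GENCODE transcript sequences (GRCm38).
Snord50a in Snhg5, chr9:88521529-88521600, minus strand: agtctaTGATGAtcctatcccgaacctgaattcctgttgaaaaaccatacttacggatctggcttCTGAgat
Snora9 in Snhg15, chr11:6528033-6528165, minus strand: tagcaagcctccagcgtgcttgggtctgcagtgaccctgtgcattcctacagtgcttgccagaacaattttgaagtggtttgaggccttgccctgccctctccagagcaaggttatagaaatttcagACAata
Snord47 in Gas5, chr1:161038082-161038158, plus strand: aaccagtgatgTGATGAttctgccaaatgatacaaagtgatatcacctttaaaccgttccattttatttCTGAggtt
Snora24 in Snhg8, chr3:123507937-123508066, minus strand: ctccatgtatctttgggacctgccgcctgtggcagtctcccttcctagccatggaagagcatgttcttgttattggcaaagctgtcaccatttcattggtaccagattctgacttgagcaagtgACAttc
Both kinds of snoRNA occurred on either side of that division.

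**Figure D1:**
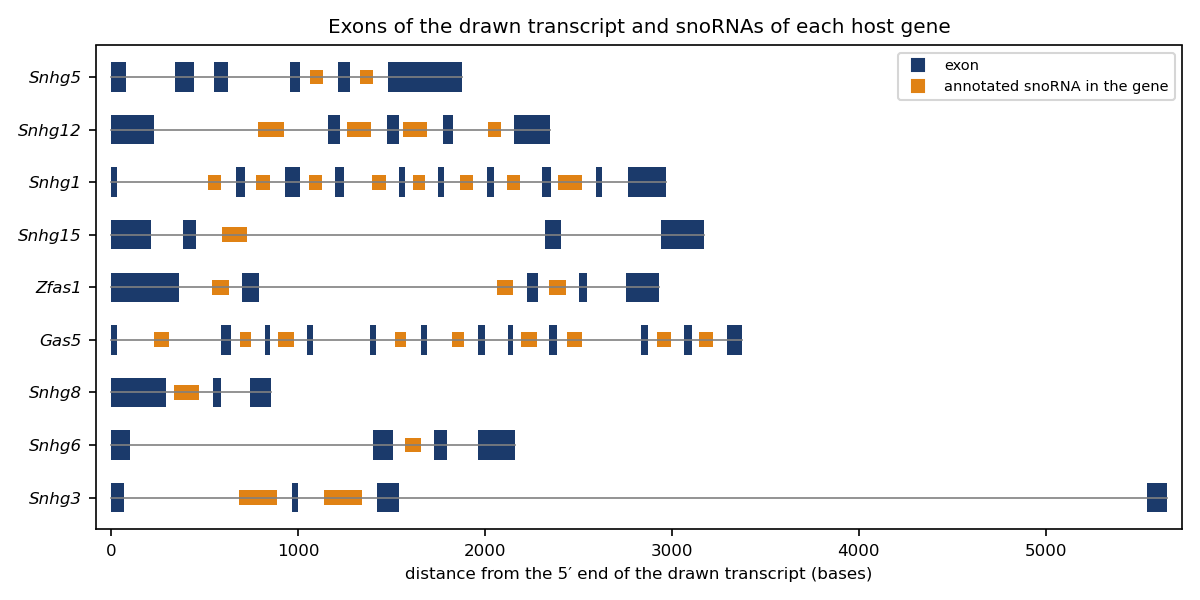
Exons (blue) of the transcript with the most exons of each host gene and the annotated snoRNAs (orange), drawn by distance in bases from the 5′ end of that transcript. Genes are ordered from the lowest to the highest log2 fold change between 2% and 20% oxygen in control cells; Snhg1 and Gas5 carry a snoRNA in 8 of 9 and 9 of 11 introns, and Snhg15 and Snhg8 carry 1 each.

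The start sites were read from the RefSeq promoter table (GRCm38.p6), in which 8 of the 9 genes had an entry, with 9 starts in all because Gas5 has 2. Snhg6 had none. The windows printed below run from 25 bases before the annotated start to the 30 bases that begin with it. Capitals mark a C followed by at least 4 further C or T bases that begins within 10 bases of the start, which is the letter pattern of a TOP start, or, in Snhg15, the motif CACGTG.
Snhg5, chr9:88522868-88522922, minus strand: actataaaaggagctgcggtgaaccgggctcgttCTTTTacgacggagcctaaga
Snhg12, chr4:132308653-132308707, plus strand: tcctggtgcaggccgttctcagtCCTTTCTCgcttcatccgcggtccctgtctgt
Snhg1, chr19:8723462-8723516, plus strand: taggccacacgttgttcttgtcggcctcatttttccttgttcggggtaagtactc
Snhg15, chr11:6528731-6528785, minus strand: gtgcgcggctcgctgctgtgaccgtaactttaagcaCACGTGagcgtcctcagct
Zfas1, chr2:167062909-167062963, plus strand: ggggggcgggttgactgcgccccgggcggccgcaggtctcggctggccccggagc
Gas5, second start, chr1:161035141-161035195, plus strand: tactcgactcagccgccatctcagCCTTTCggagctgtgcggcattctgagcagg
Snhg8, chr3:123508307-123508361, minus strand: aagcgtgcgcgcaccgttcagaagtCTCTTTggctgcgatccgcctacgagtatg
Snhg3, chr4:132353657-132353711, minus strand: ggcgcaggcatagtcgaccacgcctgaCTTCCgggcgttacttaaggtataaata
The pyrimidine pattern was absent from the first Gas5 start, which is not printed. It was present at 5 of the 9 starts, against 30.72% of the 32851 promoter entries in the table. These lie in 5 of the 8 genes (Snhg5, Snhg12, Gas5, Snhg8 and Snhg3). The pattern was found both in genes that were far lower at 2% oxygen (Snhg5, Snhg12) and in genes that were not (Gas5, Snhg8, Snhg3). In the full 300 bases of each entry, both strands searched, CACGTG (the E-box letters) occurred in Snhg15 alone of the 8, against 7.15% of all entries. ACGTG, which every CACGTG also contains, occurred in Snhg1, Snhg5 and Snhg15, against 19.62% of all entries. These are letter matches and not measured sites.

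Levels were first compared between the 9 genes in control cells at 20% oxygen, as CPM (estimated counts relative to the TMM-scaled size of the library) per kilobase of the gene's median transcript length (mean ± SD, n = 4 libraries). The SD covers libraries alone, and the order also depends on the length chosen. For Snhg12 the median is 915.5 bases, against 606 in its transcript with the most exons. Gas5 stood highest at 639.6 ± 60.8, followed by Snhg1 at 460.03 ± 14.2 and Zfas1 at 224 ± 12.5. At these lengths Snhg12 at 195 ± 11.7 and Snhg5 at 194 ± 9.64 did not differ beyond their spread between libraries. Below them came Snhg6 at 105 ± 4.79, Snhg8 at 68.9 ± 5.01, Snhg15 at 35.5 ± 0.919 and Snhg3 at 21.8 ± 0.261. In control cells at 2% oxygen the order was different: Gas5 was still highest at 409 ± 27.6, but Snhg6 came next at 83.9 ± 5.28, and Zfas1 (54.7 ± 4.77) and Snhg8 (53.04 ± 6.18) overlapped. Snhg1 followed at 43.6 ± 3.67, Snhg12 (14.1 ± 1.10) and Snhg5 (13.9 ± 2.44) overlapped near the bottom, and Snhg15 was lowest at 4.41 ± 0.919 CPM per kilobase. Together the 9 genes took 0.139% of a library's counts in control cells and 0.120% in MCT4-KO cells at 20% oxygen, and 0.0401% and 0.0357% at 2% oxygen.

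Between oxygen levels the 9 genes split into 5 that were at least 4-fold lower at 2% oxygen in each genotype (Snhg5, Snhg12, Snhg1, Snhg15 and Zfas1) and 4 that differed by at most 1.56-fold (Gas5, Snhg8, Snhg6 and Snhg3). Over all tested genes 1.71% were at least 4-fold lower in control cells and 1.33% in MCT4-KO cells, and since the genes were chosen for this difference, nothing is read from that comparison. The members nearest to the 4-fold line were Zfas1 inside it and Gas5 outside it, with log2 fold changes in control cells of -2.04 and -0.65. In bulk RNA, fewer cells of a type and less of an RNA per cell cannot be told apart.

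Snhg5, host of the U50 snoRNAs, measured 167, 167, 161 and 150.3 CPM in the control libraries at 20% oxygen and 9.25, 12.3, 10.8 and 13.99 CPM at 2% oxygen. In MCT4-KO cells it measured 143, 149, 149 and 154 CPM at 20% and 10.5, 9.39, 10.6 and 9.58 CPM at 2% oxygen. Every library at 2% oxygen lay more than 10-fold below every library at 20% oxygen, and the log2 fold changes were -3.80 ± 0.072 (SE) in control and -3.89 ± 0.073 in MCT4-KO cells.

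Snhg12 lies on chromosome 4 at 132308623 to 132311024 (GRCm38), 36989 bases from Snhg3 on the opposite strand. It measured 184, 187, 181 and 163 CPM in the control libraries at 20% oxygen and 12.3, 12.5, 12.6 and 14.5 CPM at 2% oxygen, and 148, 148, 135 and 146 CPM in MCT4-KO cells at 20% and 10.2, 8.75, 8.55 and 8.77 CPM at 2% oxygen. The log2 fold changes between oxygen levels were -3.79 ± 0.060 and -3.99 ± 0.063. Its neighbour Snhg3, host of the 2 Snora73 (U17) genes needed for early cleavage of the ribosomal RNA precursor, was level: 9.56, 9.67, 9.47 and 9.41 CPM in control cells at 20% oxygen against 10.2, 9.54, 10.09 and 10.06 CPM at 2%, a log2 fold change of 0.064 ± 0.081. In MCT4-KO cells Snhg3 measured 8.08, 8.13, 10.04 and 10.2 CPM at 20% and 8.33, 7.55, 6.98 and 6.58 CPM at 2% oxygen (-0.31 ± 0.084), with overlap between the groups. The sign for Snhg3 in control cells turned to -0.14 when libraries were scaled by their size alone.

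Snhg1, which holds 8 of the 33 snoRNA entries, the largest number after Gas5 with 10, measured 287, 279, 276 and 267 CPM in control cells at 20% oxygen and 25.4, 25.1, 24.99 and 29.6 CPM at 2% oxygen. In MCT4-KO cells the values were 247, 262, 256 and 262 CPM at 20% and 16.3, 16.2, 16.5 and 17.7 CPM at 2% oxygen. Its log2 fold changes, -3.40 ± 0.047 and -3.94 ± 0.049, were 10.5-fold and 15.4-fold reductions. The MCT4-KO libraries at 2% oxygen all lay below the control libraries at 2% oxygen, a gap that returns in the knockout comparison.

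Snhg15, host of Snora9, measured 21.9, 21.2, 20.6 and 21.01 CPM in control cells at 20% oxygen and 2.16, 2.20, 2.88 and 3.29 CPM at 2% oxygen (-3.01 ± 0.089). In MCT4-KO cells it measured 19.0, 18.6, 19.5 and 19.7 CPM at 20% and 2.50, 2.10, 2.81 and 2.82 CPM at 2% oxygen (-2.90 ± 0.089). Here the 2 genotypes overlapped at 2% oxygen.

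Zfas1, host of Snord12 and antisense to the start of Znfx1, was the least reduced of the 5. It measured 164, 168, 172 and 151 CPM in control cells at 20% oxygen and 39.9, 36.4, 38.9 and 44.7 CPM at 2% oxygen (-2.04 ± 0.052). In MCT4-KO cells it measured 133, 136, 127 and 133 CPM at 20% and 26.3, 27.3, 24.99 and 27.04 CPM at 2% oxygen (-2.32 ± 0.054).

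Gas5, the growth-arrest host gene whose exons are a textbook target of nonsense-mediated decay, remained abundant at 2% oxygen. It measured 429, 421, 413 and 346 CPM in control cells at 20% oxygen and 249, 241, 258 and 281 CPM at 2% oxygen (-0.65 ± 0.056). In MCT4-KO cells it measured 336, 334, 319 and 341 CPM at 20% and 237, 225, 231 and 239 CPM at 2% oxygen (-0.51 ± 0.056), and the oxygen groups did not overlap in either genotype. Snhg8, host of Snora24, had means of 36.4 ± 2.64 (SD, n = 4) and 28.01 ± 3.26 CPM at 20% and 2% oxygen in control cells and 31.5 ± 1.61 and 27.2 ± 1.84 CPM in MCT4-KO cells, where the groups overlapped (-0.38 ± 0.070 and -0.21 ± 0.070). Snhg6, host of Snord87, had means of 58.6 ± 2.68 and 46.9 ± 2.95 CPM in control cells and 48.5 ± 0.715 and 44.1 ± 0.814 CPM in MCT4-KO cells, without overlap (-0.32 ± 0.042 and -0.14 ± 0.043). All 4 libraries at 2% oxygen lay below all 4 at 20% for 8 of the 9 genes in control cells and for 7 in MCT4-KO cells, where the same held for 35.3% and 36.5% of all tested genes.

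**Figure D2:**
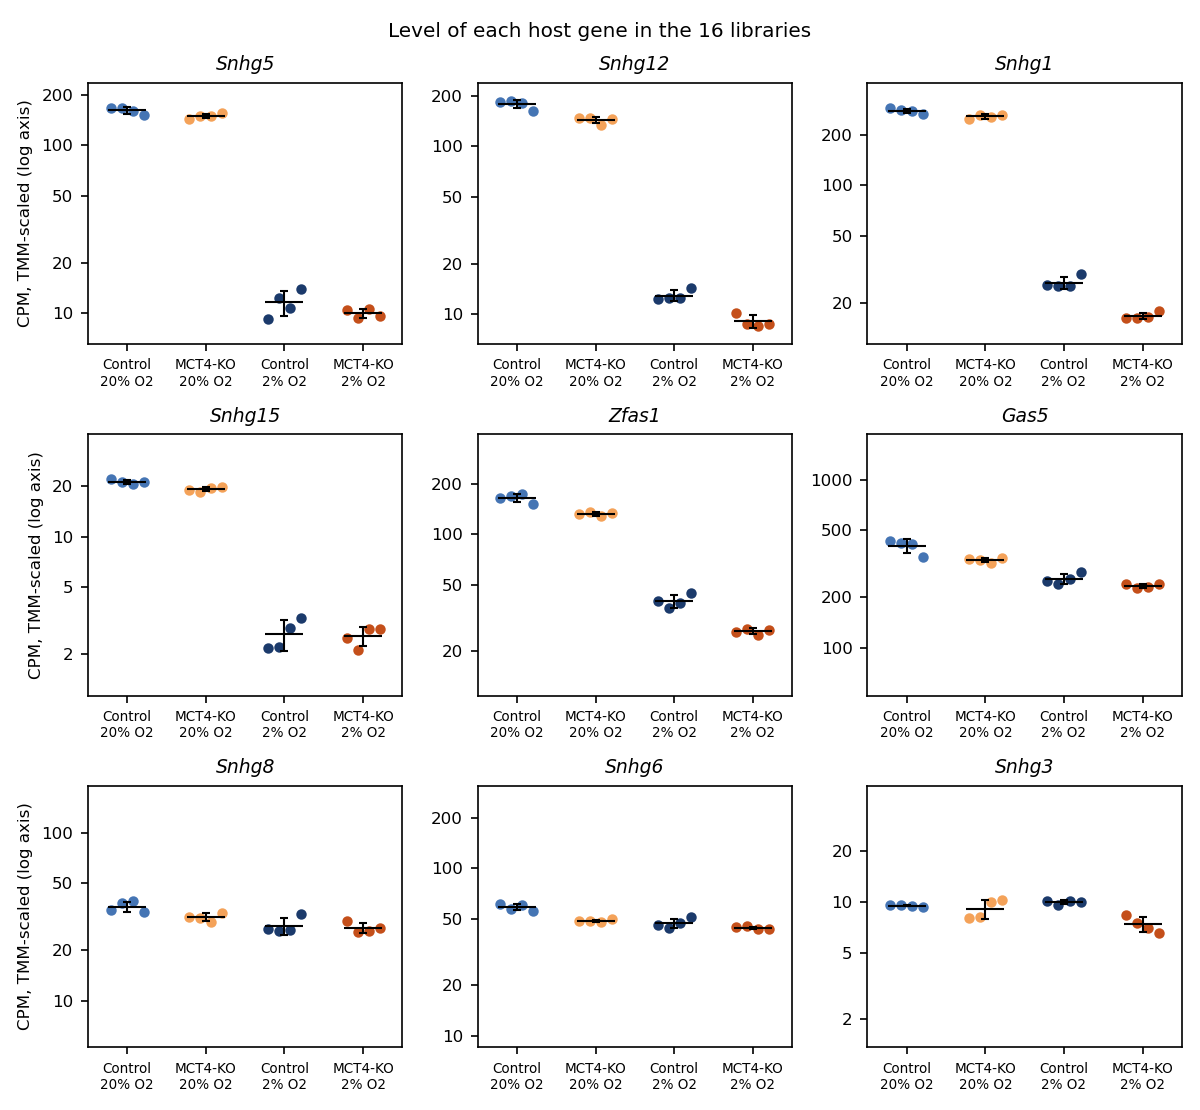
Level of each host gene in every library, in TMM-scaled CPM on a log axis that spans the same fold range in each panel; points are libraries, in replicate order from left to right within a group, and bars are the mean ± SD of 4. Snhg5, Snhg12, Snhg1, Snhg15 and Zfas1 are far lower in both 2% oxygen groups, Gas5, Snhg8 and Snhg6 differ little, and Snhg3 in control cells is level at 9.53 and 9.96 CPM.

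Several properties of the libraries moved with oxygen as well, and their part in these values was not tested. Mitochondrially encoded genes took 0.605% to 0.984% of counts in control and 0.645% to 0.801% in MCT4-KO libraries at 20% oxygen, and 0.241% to 0.338% and 0.330% to 0.413% at 2% oxygen. TMM factors ran from 1.06 to 1.08 at 20% and from 0.912 to 0.953 at 2% oxygen. Scaling by library size alone moved the median of all genes to -0.22 (log2) in control and -0.19 in MCT4-KO cells, from -0.017 and -0.014, and gave 35.2% and 35.4% of called genes as higher, where TMM gave 49.4% and 49.3%. Library totals ran from 21192179 to 28871459 estimated counts. The 10 myeloid markers checked were detected, with a summed level of 3377 to 3868 CPM at 20% and 7116 to 7939 CPM at 2% oxygen, although Csf1r stayed at or below 1.53 CPM. The markers did not move as a set: in control cells 6 were called higher and 4 lower at 2% oxygen. Elane alone went from a mean of 693 to 3794 CPM there, while Ctsg went from 1283 to 1032 CPM. Of the markers of other cells, Cd3e was at 0 and the sum of those tested was 181 to 306 CPM, nearly all of it Pecam1, which myeloid progenitors also express. Control replicate 4 at 2% oxygen stood apart from the other 3 libraries of its group, with a chi-square per gene of 8.09 to 11.9 against 2.49 to 3.23 among the others. It was the highest of its group for 8 of the 9 host genes. Control replicate 4 at 20% oxygen was the lowest of its group for 8 of the 9, and MCT4-KO replicate 4 at 20% was the highest for 7. At 20% oxygen the chi-square per gene between libraries of a group also varied. It ran from 3.36 to 8.57 in control and from 2.41 to 7.19 in MCT4-KO cells.

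The first tested question was what loss of MCT4 did to the host genes at 20% oxygen. The target was checked first: Slc16a3 measured 183.7 to 234.9 CPM in control libraries and 70.4 to 94.7 CPM in knockout libraries at 20% oxygen, and 789 to 844 against 358 to 370.3 CPM at 2% oxygen. The libraries thus matched their labels, with message remaining in the knockout cells.

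At 20% oxygen 4 of the 9 host genes fell in MCT4-KO cells (edgeR quasi-likelihood F-test, Benjamini-Hochberg over 13774 genes, called under an adjusted p of 0.05), and none rose, all 9 values being negative. Over all tested genes 4.80% were called lower and 4.96% higher. Snhg12 fell by 0.31 ± 0.047 on the log2 scale (adjusted p = 2.0e-04), Zfas1 by 0.31 ± 0.047 (adjusted p = 2.3e-04) and Snhg6 by 0.27 ± 0.042 (adjusted p = 2.5e-04), all by edgeR. Gas5 fell by 0.27 ± 0.055 (edgeR adjusted p = 0.0029). These are reductions of 1.21-fold to 1.24-fold, and in each of the 4 genes the highest knockout library lay below the lowest control library.

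The other 5 genes had negative values that did not pass the test. Snhg8 measured 33.7 to 39.1 CPM in control libraries and 29.5 to 33.5 CPM in knockout libraries (-0.21 ± 0.068, edgeR adjusted p = 0.060), and Snhg1 had -0.11 ± 0.039 (edgeR adjusted p = 0.083). Snhg15 (-0.14 ± 0.064), Snhg5 (-0.12 ± 0.056) and Snhg3 (-0.060 ± 0.080) had adjusted p-values of 0.18, 0.21 and 0.71 in edgeR. Counting the libraries alone, 7 of the 9 genes were lower in every knockout library than in every control library, against 6.89% of all tested genes. Snhg8 was called with no count filter (edgeR adjusted p = 0.019), and Snhg1 by DESeq2's Wald test (adjusted p = 0.044).

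The second question was the same comparison at 2% oxygen. Its libraries, like those of the first question, also enter the contrast by which the genes were chosen. The genes were tested here because none of the 9 was among the 100 genes with the lowest fold change. The nearest were Snhg1 at rank 422 and Zfas1 at rank 502 of 13774. That condition cannot show that the choice had no part in these values. Again 4 of the 9 fell and none rose, all 9 values being negative, at a level of background that was higher, with 19.1% of all tested genes called lower. Snhg1 fell by 0.66 ± 0.056 on the log2 scale (edgeR adjusted p = 5.0e-08), a 1.58-fold reduction. Zfas1 fell by 0.60 ± 0.058 (edgeR adjusted p = 2.3e-07), or 1.51-fold, and Snhg12 by 0.51 ± 0.079 (edgeR adjusted p = 4.2e-05), or 1.43-fold. Snhg3 fell by 0.44 ± 0.084 (edgeR adjusted p = 3.9e-04), or 1.35-fold. In all 4 the libraries did not overlap: Zfas1, for instance, reached at most 27.3 CPM in MCT4-KO cells and at least 36.4 CPM in control cells.

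Gas5 had -0.14 ± 0.056 (edgeR adjusted p = 0.052) without overlap, at 225 to 239 CPM in MCT4-KO and 241 to 281 CPM in control cells. It was called with DESeq2 size factors (edgeR adjusted p = 0.04999), with no count filter (0.019), in the fit of the compared groups (0.022) and by DESeq2's Wald test (0.048). Snhg5 (-0.20 ± 0.094), Snhg6 (-0.090 ± 0.043), Snhg8 (-0.043 ± 0.072) and Snhg15 (-0.030 ± 0.13) had edgeR adjusted p-values of 0.096, 0.11, 0.68 and 0.89 and overlapping libraries. Non-overlap with lower values held for 5 of the 9 genes, against 18.5% of all tested genes. Without control replicate 4, the library that stands apart, the 4 called genes kept their calls, with -0.59 for Snhg1, -0.54 for Zfas1, -0.46 for Snhg12 and -0.43 for Snhg3, while Gas5 had -0.095 (edgeR adjusted p = 0.19). Snhg5 then had -0.099, Snhg6 had -0.047, and Snhg8 and Snhg15 turned to 0.044 and 0.097, none of which passed the test.

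Side by side, Snhg12 and Zfas1 were called at both oxygen levels, Gas5 and Snhg6 at 20% and Snhg1 and Snhg3 at 2%. The knockout effect at 2% minus that at 20% oxygen was -0.55 ± 0.068 for Snhg1, -0.38 ± 0.12 for Snhg3, -0.29 ± 0.074 for Zfas1 and -0.20 ± 0.092 for Snhg12. It was 0.18 ± 0.060 for Snhg6, 0.16 ± 0.099 for Snhg8, 0.13 ± 0.079 for Gas5, 0.11 ± 0.14 for Snhg15 and -0.087 ± 0.11 for Snhg5. These differences contain the oxygen contrast and are given without a test, so the calls at one level and not at the other are not shown to differ.

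**Figure D3:**
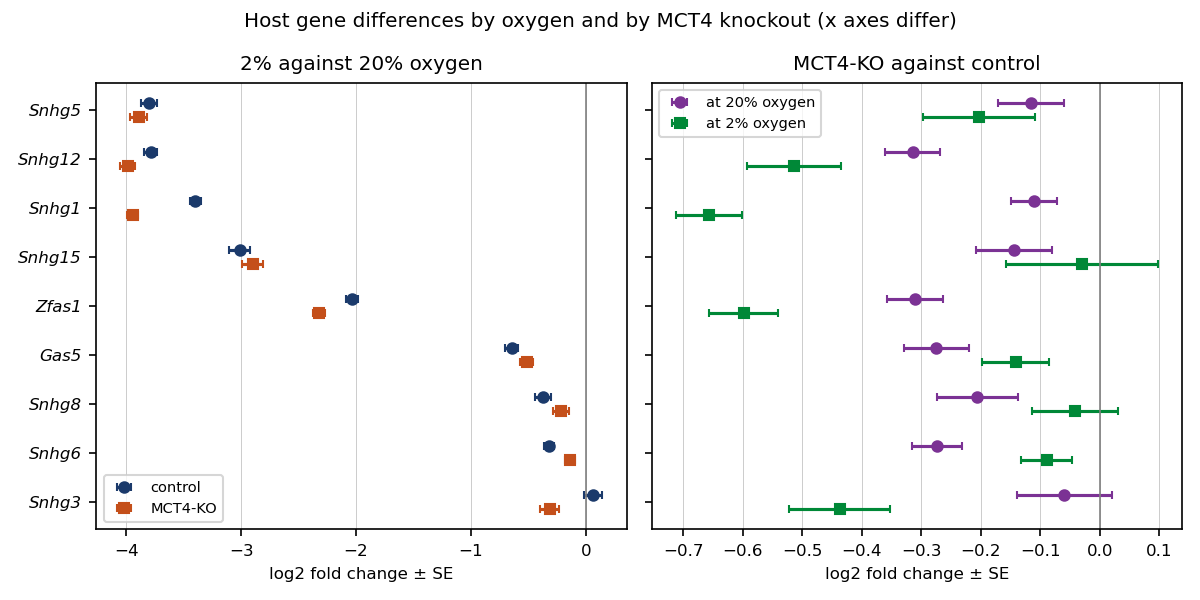
Log2 fold change ± SE of the 9 host genes between oxygen levels (left, control and MCT4-KO cells) and between MCT4-KO and control cells (right, at 20% and 2% oxygen), on x axes of different range. The left panel runs from -3.99 to 0.064 and the right from -0.66 to -0.030; at 2% oxygen the knockout values of Snhg1, Zfas1, Snhg12 and Snhg3 stand below the rest.

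The snoRNAs themselves were almost absent from these poly(A)-selected libraries. Of the 33 entries 6 had any estimated count, the largest count in a library was 4.86, and the sum over entries and all 16 libraries was 42.2 counts, so none passed the filter and none was tested. Since 31 of the 33 entries overlap an exon of some annotated transcript of the host, reads from unspliced host RNA could be counted to the host gene in these annotations. The share of such reads was not measured here.

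The host RNAs themselves are short and carry short open reading frames. In the transcript with the most exons the longest frame ran from 35 codons in Snhg8 to 79 in Zfas1. Exon junctions follow that frame in Gas5 (5 junctions), Snhg12 (4), Snhg1, Snhg6 and Snhg8 (2 each) and Snhg3 (1), and none follow it in Snhg5, Snhg15 and Zfas1. A junction downstream of a stop codon is the classical mark for nonsense-mediated decay. By this 1 transcript per gene, the 5 genes far lower at 2% oxygen include 2 with such junctions and 3 without. The genes have from 3 (Snhg8) to 25 (Gas5) annotated transcripts, which frame is translated is not known here, and decay was not tested.

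Exons of 3 of the genes overlap exons of others, so their counts are less certain, those on opposite strands because the strand setting of the counting is not given in the sources used here. Snhg3 shares exon bases with Rcc1 on its own strand and with Gm17300 on the other, and its estimated counts were not whole numbers in 15 of 16 libraries. Zfas1 shares 189 exon bases with Gm27494 on its own strand and 82 with Znfx1 on the other, with counts that were not whole in 16 of 16. Snhg6 overlaps Mcmdc2 on the opposite strand, and all of its counts were whole. Gas5 and Snhg8 also had whole counts throughout.

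Other noncoding hosts were then set beside the 9. Of 12 listed, 10 were matched in the table and 8 were tested, since Snhg4 and Snhg7 had no match and Snhg9 and Snhg18 lay below the filter at 3 or fewer counts in each library. At 2% oxygen 5 of the 8 fell in control cells and none rose, where 39.6% of all tested genes were called lower. In MCT4-KO cells 5 fell and 1 rose, against 38.7% called lower and 37.7% higher. Snhg16 fell from 56.2 to 72.6 CPM at 20% oxygen to 2.97 to 3.84 CPM at 2% oxygen in control cells, a log2 fold change of -4.27 ± 0.093 (edgeR adjusted p = 2.7e-19), and had -4.26 ± 0.096 in MCT4-KO cells (edgeR adjusted p = 5.3e-19). Snhg17 fell by 3.02 ± 0.079 in control (edgeR adjusted p = 4.3e-18) and had -2.54 ± 0.076 in MCT4-KO cells (edgeR adjusted p = 4.6e-17). Among the 9 host genes, the lowest values were -3.80 (Snhg5) in control and -3.99 (Snhg12) in MCT4-KO cells, so Snhg16 lay below all 9 and Snhg17 lay between Snhg1 and Zfas1 in both genotypes. Snhg20 fell by 1.73 ± 0.23 (edgeR adjusted p = 7.2e-07) and Epb41l4aos by 0.46 ± 0.10 (edgeR adjusted p = 3.0e-04) in control cells. Dancr, the fifth, had 8.19 to 28.3 counts in control libraries at 20% and 0 to 4.92 counts at 2% oxygen, too few for a fold.

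Snhg10 and Snhg14 had values of -0.23 ± 0.34 and 0.29 ± 0.20 in control cells and did not pass the test in any comparison. Snhg11, at 18 to 23 counts in control and 6 to 19 counts in MCT4-KO libraries at 20% oxygen, fell with the knockout there (-1.03 ± 0.30, edgeR adjusted p = 0.036). At 20% oxygen Snhg16 (-0.26 ± 0.062, edgeR adjusted p = 0.011) and Snhg17 (-0.20 ± 0.058, edgeR adjusted p = 0.030) also fell with the knockout. Thus 3 of the 8 were lower and none higher, against 4.80% and 4.96% of all tested genes. At 2% oxygen, where 19.1% of all tested genes were called lower and 19.4% higher, Epb41l4aos fell (-0.60 ± 0.11, edgeR adjusted p = 2.7e-04) while Snhg17 rose (0.28 ± 0.10, edgeR adjusted p = 0.042). The rise of Snhg17 was lost with no count filter and by DESeq2's Wald test, and in the fit of the compared groups.

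Protein-coding hosts, found by annotation as genes with a snoRNA inside them on the same strand that overlaps no exon of any of their transcripts, a rule that 31 of the 33 entries above would fail, numbered 219, of which 218 were in the table and 165 were tested. At 2% oxygen in control cells 62 rose and 80 fell (45 and 101 when scaled by library size alone), against 38.7% called higher and 39.6% called lower over all genes, with a median log2 fold change of -0.13 against -0.017 over all genes. The 8 other noncoding hosts had a median of -1.10 in the same comparison. The median of the 9 host genes was -2.04, but they were chosen for this difference and nothing is read from it. With the knockout at 20% oxygen 6 of the coding hosts rose and 12 fell. At 2% oxygen 53 rose and 38 fell, with medians of -0.0027 and 0.047 at the 2 levels. Shares called over all genes were 4.96% higher and 4.80% lower at 20% oxygen, and 19.4% and 19.1% at 2% oxygen. The uncharacterised gene 2410002F23Rik, among the coding hosts most clearly lower at 2% oxygen, fell by 2.69 ± 0.053 in control cells (edgeR adjusted p = 6.1e-20), whereas Nop53, a 60S assembly factor, rose by 0.60 ± 0.037 (edgeR adjusted p = 6.1e-12). With the knockout at 2% oxygen Nop53 fell by 0.38 ± 0.037 (edgeR adjusted p = 2.4e-07). Of the tested coding hosts 16 are ribosomal protein genes and 3 are snoRNP protein genes.

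Proteins that bind snoRNAs or assemble their particles formed a list of 20, all tested. At 2% oxygen in control cells 3 rose and 12 fell (1 and 16 when scaled by library size alone), and in MCT4-KO cells 5 rose and 10 fell, with list medians of -0.31 and -0.12. Shares over all genes were 38.7% higher and 39.6% lower in control cells, and 37.7% and 38.7% in MCT4-KO cells. Nop58 and Nop56, core proteins of the box C/D particle and themselves hosts, fell by 1.70 ± 0.044 (edgeR adjusted p = 3.0e-18) and by 1.45 ± 0.041 (edgeR adjusted p = 1.7e-17) in control cells. With the knockout at 2% oxygen 15 of the 20 rose and 1 fell, against 19.4% called higher over all genes, with a list median of 0.23. There Gar1, of the box H/ACA particle, rose by 0.49 ± 0.044 (edgeR adjusted p = 9.2e-08), Nop58 by 0.36 ± 0.044 (edgeR adjusted p = 3.0e-06) and Nop56 by 0.31 ± 0.042 (edgeR adjusted p = 8.1e-06). In the same comparison 4 of the 9 host genes were lower and none was higher. At 20% oxygen 1 of the 20 changed, against 4.80% of all genes called lower and 4.96% higher: Nop56 fell by 0.14 ± 0.040 (edgeR adjusted p = 0.028).

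Enzymes that free and trim intronic snoRNAs (8 genes, among them the debranching enzyme and the nuclear exosome) had 4 members lower and none higher at 2% oxygen in control cells and 4 lower and 1 higher in MCT4-KO cells (7 and 6 lower when scaled by library size alone). Among all tested genes 39.6% were called lower and 38.7% higher in control cells, and 38.7% and 37.7% in MCT4-KO cells. Dis3, the exosome ribonuclease, fell by 1.51 ± 0.065 in control cells (edgeR adjusted p = 1.2e-14). With the knockout at 2% oxygen it rose by 0.59 ± 0.068 (edgeR adjusted p = 1.6e-06). It was 1 of 4 members higher there and none was lower, against 19.4% and 19.1% of all genes. At 20% oxygen none of the 8 was called with the knockout by edgeR.

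Factors of nonsense-mediated decay and translation termination (20 genes) had 13 members lower and 1 higher at 2% oxygen in control cells, against 39.6% of all genes called lower, and 11 lower and 3 higher in MCT4-KO cells, against 38.7%. Smg5, which recruits decay enzymes to marked mRNAs, fell by 1.36 ± 0.034 (edgeR adjusted p = 1.9e-18) and the release factor gene Gspt1 by 0.72 ± 0.033 (edgeR adjusted p = 4.7e-14) in control cells. With the knockout at 2% oxygen 8 were higher and 3 lower, against 19.4% and 19.1% of all genes, Gspt1 rising by 0.32 ± 0.033 (edgeR adjusted p = 5.8e-07). At 20% oxygen none of the 20 was called with the knockout by edgeR. Wherever a list is said here to have no member called in a direction, edgeR gave none in that direction at an unadjusted p under 0.05 either, and DESeq2's Wald test called none.

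Ribosomal protein mRNAs, the best known transcripts with a TOP start, were mostly called higher at 2% oxygen under TMM scaling. The 9 host genes were chosen for low values there, so nothing is read from the contrast with them. Of 77 tested, 73 rose and 1 fell in control cells and 63 rose and 2 fell in MCT4-KO cells (54 and 3, and 28 and 9, when scaled by library size alone), with list medians of 0.39 and 0.22. Called higher over all genes were 38.7% in control and 37.7% in MCT4-KO cells. Rps4x rose by 0.58 ± 0.033 in control cells (edgeR adjusted p = 1.4e-12). Rpl12, the 1 gene of the list that fell, had -1.12 ± 0.062 (edgeR adjusted p = 9.1e-13) and was singled out after its value was seen. With the knockout the direction matched that of the host genes: at 2% oxygen 68 of the 77 fell and none rose, against 19.1% of all genes called lower, with a list median of -0.23 beside -0.20 for the 9 host genes. At 20% oxygen 4 of the 77 fell and none rose, against 4.80% of all genes called lower and 4.96% higher. Ribosomal protein genes have many pseudogenes, and their counts are uncertain for that reason.

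A further 19 mRNAs of translation factors with a TOP start gave the same picture, with 19 higher in control and 15 in MCT4-KO cells at 2% oxygen and none lower (14 and 10 higher, 2 and 4 lower, when scaled by library size alone). The shares of all genes called higher were 38.7% and 37.7%. With the knockout at 2% oxygen 16 of the 19 fell and none rose, against 19.1% of all genes called lower. Among them were Eef1a1 (-0.40 ± 0.035, edgeR adjusted p = 6.6e-08) and Tpt1 (-0.33 ± 0.037, edgeR adjusted p = 9.3e-07). Of 11 regulators of TOP mRNAs, 8 fell and 2 rose at 2% oxygen in control cells, against 39.6% and 38.7% of all genes. With the knockout at 2% oxygen 6 rose and 1 fell, against 19.4% and 19.1%, Larp4 rising by 0.39 ± 0.050 (edgeR adjusted p = 6.0e-06). Myc, a transcription factor that drives ribosome production, fell by 0.58 ± 0.046 at 2% oxygen in control cells (edgeR adjusted p = 2.6e-10) and rose by 0.43 ± 0.046 with the knockout at 2% oxygen (edgeR adjusted p = 5.8e-07).

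**Figure D4:**
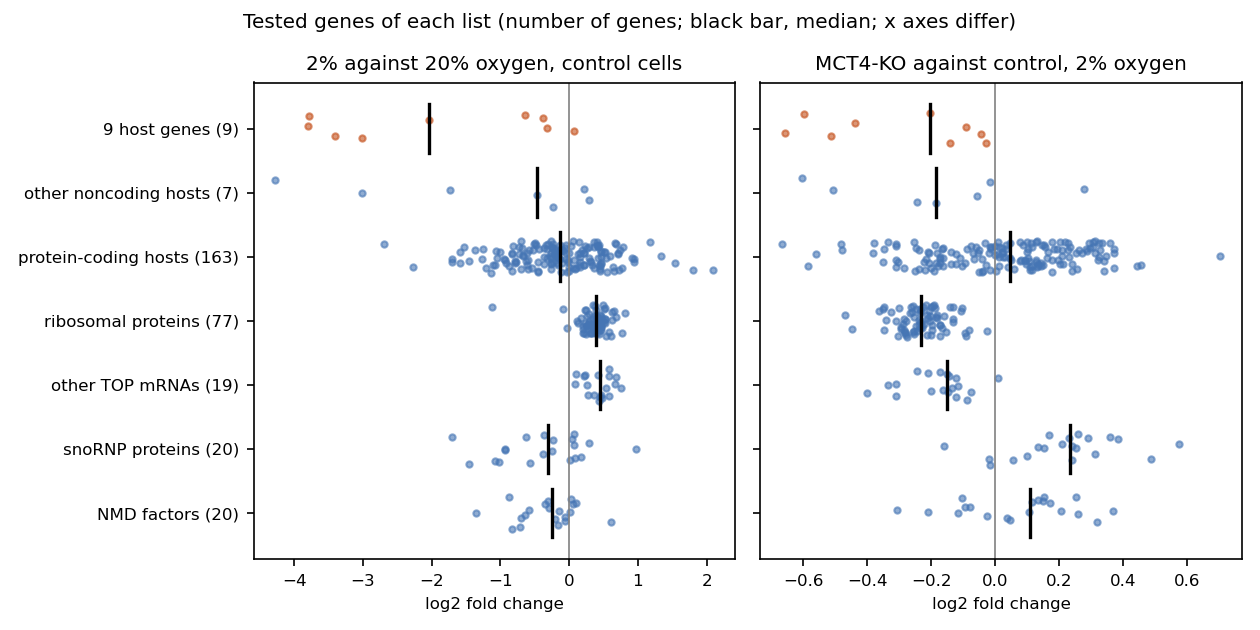
Log2 fold change of each tested gene of 7 lists between 2% and 20% oxygen in control cells (left) and between MCT4-KO and control cells at 2% oxygen (right); points are genes, black bars are medians of the genes drawn, and Dancr, Nbea and Tex14, with a mean below 0.124 CPM in some group, are not drawn. The 9 host genes spread from -3.80 to 0.064 on the left, where the ribosomal protein genes center on 0.39; on the right both groups lie below 0 and the snoRNP proteins center on 0.23.

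Last, the genes whose pattern over the 16 libraries was most like the mean of the 9 host genes were found by Pearson's r on log2 CPM, among the 9363 genes that averaged 3 or more in log2 CPM. The libraries share their scaling and the oxygen difference, so r is a description only. Atf5, a stress-induced transcription factor, had the highest r of 0.998, with mean levels of 534 and 442 CPM at 20% oxygen and of 87.6 and 61.5 CPM at 2% oxygen (control first, then MCT4-KO). The next were 4632415L05Rik, Wsb1, Dirc2, Eif5, Zbtb18, Fbxo9 and Smim10l1, with r from 0.996 to 0.997. Since r also takes in the differences between genotypes, the knockout values of these genes are given without a test. Those of Atf5 were -0.27 ± 0.054 at 20% and -0.51 ± 0.061 at 2% oxygen. Over the 8 genes the values ran from -0.27 (Atf5) to -0.034 (Fbxo9) at 20% and from -0.51 (Atf5) to -0.085 (Eif5) at 2% oxygen.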

How the data were processed

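Poly(A) RNA of 16 libraries was sequenced, with NEBNext reagents per the labels' protocols. The authors deposited 1 table of expected counts per gene, and the submitters' processing notes name HISAT2, RSEM and mm10; their versions, the annotation and the strand setting are not stated there. All values were rounded, since 10.1% had a fraction. Identifiers were named with GENCODE vM21 (53706 matched).

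Genes were filtered with filterByExpr and scaled by TMM in edgeR 4.0.16 (R 4.3.3). Every group had its own mean in 1 model of the 16 libraries, with 12 residual degrees of freedom, tested by the quasi-likelihood F-test, with Benjamini-Hochberg adjustment over 13774 genes. The test was tested on simulated data. Same-numbered replicates did not deviate together (r from -0.049 to 0.067), so they were not paired.

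Alternatives were DESeq2 size factors, library size, no count filter, the Wald test of DESeq2 1.42.0, the compared groups alone, a replicate block and leaving out each library. The 9 genes and all lists were chosen with earlier results of these data known. Named genes were the 9, Slc16a3, Myc, the other noncoding hosts, the 8 most alike genes and, per list and comparison, genes among the 3 called with the smallest adjusted p. No spike-in is described, so levels are relative.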

Additional observations from a re-analysis of the deposited data

Results flagged for a closer look

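In 7 of 56 groups of 4 libraries (the 9 host genes, Slc16a3, Myc, Snhg16, Snhg17 and Epb41l4aos in each group) 1 library lay far from the other 3 by Dixon's criterion, which chance does in about 1 group in 20. In control cells at 2% oxygen replicate 4 was far above the rest for Snhg1 (29.6 CPM), Snhg12 (14.5 CPM) and Snhg8 (32.9 CPM), and replicate 2 was below the rest for Snhg3 (9.54 CPM). Snhg12 was also low in MCT4-KO replicate 3 at 20% oxygen (134.6 CPM) and high in MCT4-KO replicate 1 at 2% oxygen (10.2 CPM). Epb41l4aos was high in MCT4-KO replicate 4 at 20% oxygen (17.5 CPM).

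The knockout effect differed between 2% and 20% oxygen for Myc and for several genes of the host, snoRNA and TOP lists, by the interaction term of edgeR with an adjusted p under 0.05; values are the effect at 2% minus that at 20% oxygen on the log2 scale. The knockout effect was higher at 2% oxygen for Gar1 (0.54, adjusted p = 7.0e-06), Gspt1 (0.38), Nop56 (0.46), Nop58 (0.45), Dis3 (0.60), Myc (0.42), 2410002F23Rik (0.42), Larp4 (0.39) and Snhg17 (0.48, adjusted p = 0.0065). It was lower for Eef1a1 (-0.36, adjusted p = 5.1e-05), Nop53 (-0.33), Rps4x (-0.24) and Tpt1 (-0.22, adjusted p = 0.0048). Over all tested genes 11.6% were called higher and 11.3% lower by this term. Over whole lists it called 14 higher and 1 lower of 20 snoRNP protein genes, and 33 higher and 25 lower of 165 coding hosts. It called 28 of 77 ribosomal protein genes and 9 of the 19 other TOP mRNAs lower.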

How the results depend on the processing

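The 4 host genes called at each oxygen level kept their direction and their call under every alternative run, leave-one-out included. The number of host genes called lower was 4 or 5 under the 6 alternatives at both oxygen levels, and with 1 library left out 4 to 5 at 20% and 4 to 6 at 2% oxygen. Of all genes, 895 to 1321 were called at 20% oxygen with 1 library left out, against 1344 with all; the lowest count was that without MCT4-KO replicate 2, and 4573 to 5099 were called at 2%, against 5295. With the replicate number as a block the same number of host genes was called, and 1059 and 4984 genes in all; no host gene gained or lost a call. Scaling by library size moved the share of higher calls from 50.8% to 60.1% at 20% and from 50.4% to 63.1% at 2% oxygen, turned Snhg3 between oxygen levels in control cells from 0.064 to -0.14 and turned Snhg15 with the knockout at 2% oxygen from -0.030 to 0.010. With 1 library left out, Snhg15 at 2% oxygen ran from -0.12 to 0.097 and Snhg8 from -0.088 to 0.044. Snhg15 turned to 0.016 without control replicate 3, 0.097 without control replicate 4 and 0.054 without MCT4-KO replicate 2 at 2% oxygen, and Snhg8 turned without control replicate 4; none of these values passed the test. Snhg8 at 20% oxygen was also called in the fit of the compared groups (adjusted p = 0.039) and without control replicate 4 (0.041). At 2% oxygen Snhg5 was called without control replicate 1 (adjusted p = 0.0084), and Snhg6 (0.046) and Gas5 (0.033) without control replicate 2. The causes were not tested. List counts under these alternatives were added after the data were seen.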
